A study of Mus musculus with 4 samples.

Results

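The cone opsins Opn1sw and Opn1mw and 4 nuclear receptors that pattern them, Thrb, Rxrg, Rora and Rorb, were taken from the deposited table by gene symbol, 6 of 48897 listed genes. They had been singled out with this comparison in view, so their differences between the groups are given as a description, with no test. The data were RNA-Seq libraries of whole retina from wild-type C57BL/6 mice at postnatal day 9. On postnatal day 3 the left eyes had been given 0.6 nmol of a miR-124-3p antagomir in 1 μl into the vitreous (the anti-miR-124 group), and the right eyes a scrambled control at the same volume and concentration (the NC group). Every antagomir library was thus from left eyes and every control library from right eyes, so treatment and eye side cannot be told apart. An antagomir is a modified antisense oligonucleotide that binds a mature microRNA, and these libraries did not measure that microRNA. Each group had 2 libraries, made from pooled retinas of several litters, and nothing in the labels said that the pools were independent, so the spread given here may be partly technical. One left-eye and one right-eye column shared a number in the table, and these are called pair A (libraries NC-A and anti-A) and pair B (libraries NC-B and anti-B).

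Mouse cones carry a short-wavelength opsin (S-opsin, encoded by Opn1sw) and a medium-wavelength opsin (M-opsin, encoded by Opn1mw), often in the same cell and in opposite gradients from the ventral to the dorsal retina. S-opsin appears first, and M-opsin rises later in postnatal development. The cone isoform of the thyroid hormone receptor beta (Thrb) is required for M-opsin and represses S-opsin, the retinoid X receptor gamma (Rxrg) restrains S-opsin, and the orphan receptors alpha and beta (Rora and Rorb) activate Opn1sw.

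The sequences through which such factors and miR-124-3p are known to act are shown first. The hairpin of Mir124a-3 (GENCODE M21, mm10, chr2:180894040-180894107, plus strand) gives the seed, with the heptamer AAGGCAC in capitals, which lies at bases 45 to 51 of the hairpin and is shared by all 3 hairpins.
Mir124a-3 hairpin: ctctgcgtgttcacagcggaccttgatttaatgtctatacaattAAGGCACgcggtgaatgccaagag
For every gene, its longest annotated 3′ UTR was searched for the complement of that heptamer, GTGCCTT, and 0 of the 6 genes held it, against 12.8% of 21028 genes with an annotated 3′ UTR. After that result had been seen, the search was widened to TGCCTTA, which pairs with all but the last base of the heptamer and has an A next to it. With either set of letters, 3 of the 6 genes held 1 match each, against 19.6% of all genes. These 3 genes, Thrb, Rora and Rorb, were also those with 3′ UTRs of at least 3000 bases (4424, 9285 and 7275 bases), and 50.5% of the 2804 genes with such long 3′ UTRs held a match. The widened matches are given in capitals with their flanks.
Thrb, chr14:18035129-18035157, plus strand: ctgcctttcacTGCCTTAgcctggaaatg
Rora, chr9:69381129-69381157, plus strand: tactgactttcTGCCTTAtttactgaggg
Rorb, chr19:18934137-18934165, minus strand: tatatcatggcTGCCTTAtcaatcaagca
The 3′ UTRs of Opn1sw (1271 bases), Opn1mw (104 bases) and Rxrg (350 bases) held neither set of letters.

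The promoters of the opsins are shown because thyroid hormone, retinoid X and orphan receptors bind half-sites of the letters AGGTCA. RefSeq promoters (GRCm38.p6, 250 bases before to 50 after the start) were found for all 6 genes, 9 in all. They were searched on both strands for AGGTCA and for TAATCC, the core bound by the photoreceptor factor CRX. Matches are in capitals, and the 2 motifs did not overlap in these windows.
Opn1sw, chr6:29380464-29380763, minus strand: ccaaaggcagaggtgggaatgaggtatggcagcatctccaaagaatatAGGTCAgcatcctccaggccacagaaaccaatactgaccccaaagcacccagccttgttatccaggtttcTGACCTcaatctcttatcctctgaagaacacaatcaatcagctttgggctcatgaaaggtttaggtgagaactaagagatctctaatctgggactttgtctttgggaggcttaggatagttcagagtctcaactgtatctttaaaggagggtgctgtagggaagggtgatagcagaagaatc
Opn1mw, chrX:74127216-74127515, plus strand: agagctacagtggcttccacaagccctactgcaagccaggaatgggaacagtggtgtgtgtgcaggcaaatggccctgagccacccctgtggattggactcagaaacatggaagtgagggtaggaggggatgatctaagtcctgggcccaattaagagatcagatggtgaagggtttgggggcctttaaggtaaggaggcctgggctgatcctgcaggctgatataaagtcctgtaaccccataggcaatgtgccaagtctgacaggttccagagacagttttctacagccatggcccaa
The Opn1sw window held AGGTCA 2 times, from -202 to -197 on the coding strand and from -132 to -127 on the other strand. Of 32851 promoters, 16.3% held AGGTCA at least once and 1.81% at least 2 times. The Opn1mw window held neither motif. One of the Thrb promoters held both AGGTCA and TAATCC, as 1.38% of all promoters did, and one of the Rxrg promoters held AGGTCA once. No match was found in the Rora and Rorb windows. These are matches of letters and not measured binding.

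S-opsin mRNA was lower in both anti-miR-124 libraries than in both NC libraries. Opn1sw (chr6:29376671-29380513, minus strand) had 2653 counts in NC-A and 3424 in NC-B, and 1952 in anti-A and 1627 in anti-B. As CPM, counts scaled to a common library size after TMM normalization, these were 165 and 190 (NC) and 114 and 86.3 (anti-miR-124). The groups did not overlap, and the lowest library was anti-B. The mean was 177 ± 17.6 CPM (SD, n = 2) against 100 ± 19.8 CPM (SD, n = 2). Fitted by edgeR, the level was 56.6% of NC, a log2 fold change of -0.82 (SE 0.14), and the log2 ratios within pairs were -0.53 (A) and -1.14 (B). Of the 17766 genes that passed the filter on low counts, 1.33% had a larger fitted drop. That share describes a gene chosen with this comparison in view and is not a test.

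M-opsin mRNA stood lower too, at a level where counting error is large. Opn1mw (chrX:74127466-74150756, plus strand) had 43 counts in NC-A and 72 in NC-B, and 32 in anti-A and 24 in anti-B. The exact Poisson 95% intervals of these counts were 31.1 to 57.9 and 21.9 to 45.2 for NC-A and anti-A, which overlap, and 56.3 to 90.7 and 15.4 to 35.7 for NC-B and anti-B, which do not. These intervals cover counting error only. The values were 2.67 and 3.99 CPM (NC) and 1.87 and 1.27 CPM (anti-miR-124). All NC values lay above all anti-miR-124 values, as for S-opsin, and pair B again held the wider gap. The log2 fold change was -1.09 (SE 0.35), or 47.1% of NC, and the log2 ratios within pairs were -0.50 (A) and -1.63 (B). A predicted gene on the opposite strand inside Opn1mw, Gm6758, had 5 to 12 counts per library, and since the strand setting of the counting is not given, a share of the reads may belong to either gene.

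The 4 receptors overlapped between the groups, and each had opposite signs in the 2 pairs. Thrb (chr14:17659219-18040097), the thyroid hormone receptor beta, had 120 and 117 CPM in NC-A and NC-B and 111 and 131 CPM in anti-A and anti-B. Its log2 fold change was 0.03 (SE 0.09). The table sums all transcripts of Thrb, so its cone isoform could not be read apart from the others. Rora (chr9:68653407-69388246) had 259 and 271 CPM under NC and 277 and 252 CPM under the antagomir, a log2 fold change of -0.0031 (SE 0.08). Rorb (chr19:18930609-19111196) had the smallest standard error of the 6 genes, with 568 and 580 CPM under NC and 578 and 573 CPM under the antagomir, a log2 fold change of 0.0036 (SE 0.05). For both orphan receptors the difference was smaller than the spread between libraries.

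Rxrg (chr1:167598362-167639623), the retinoid X receptor gamma, varied the most among the receptors. It had 10.1 and 14.2 CPM in NC-A and NC-B and 13.1 and 8.38 CPM in anti-A and anti-B. It was thus higher in the treated library of pair A (log2 ratio 0.37) and lower in that of pair B (-0.76), and the fitted log2 fold change was -0.19 (SE 0.26). These signs depend on the pairing by number: anti-B lay below NC-A, and anti-A below NC-B. Rxrg is also expressed in ganglion cells, and the 8 ganglion cell markers moved with it: all 8 had opposite signs in the 2 pairs, and their median log2 ratios were 0.45 (A) and -0.48 (B). Their summed level was 792 and 933 CPM under NC and 1106 and 686 CPM under the antagomir. Set against the mean of these markers within each library, the log2 level of Rxrg was -2.29 and -2.04 under NC and -2.40 and -2.33 under the antagomir. On that scale the means differed by -0.20 and the groups did not overlap, with SDs of 0.17 and 0.05, whereas against the mean of the cone markers they overlapped. The 8 bipolar cell markers also all had opposite signs in the 2 pairs, with median log2 ratios of 0.21 (A) and -0.33 (B). The pattern was thus not particular to ganglion cell markers. The part of the ganglion cells in the Rxrg values was not tested.

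**Figure D1:**
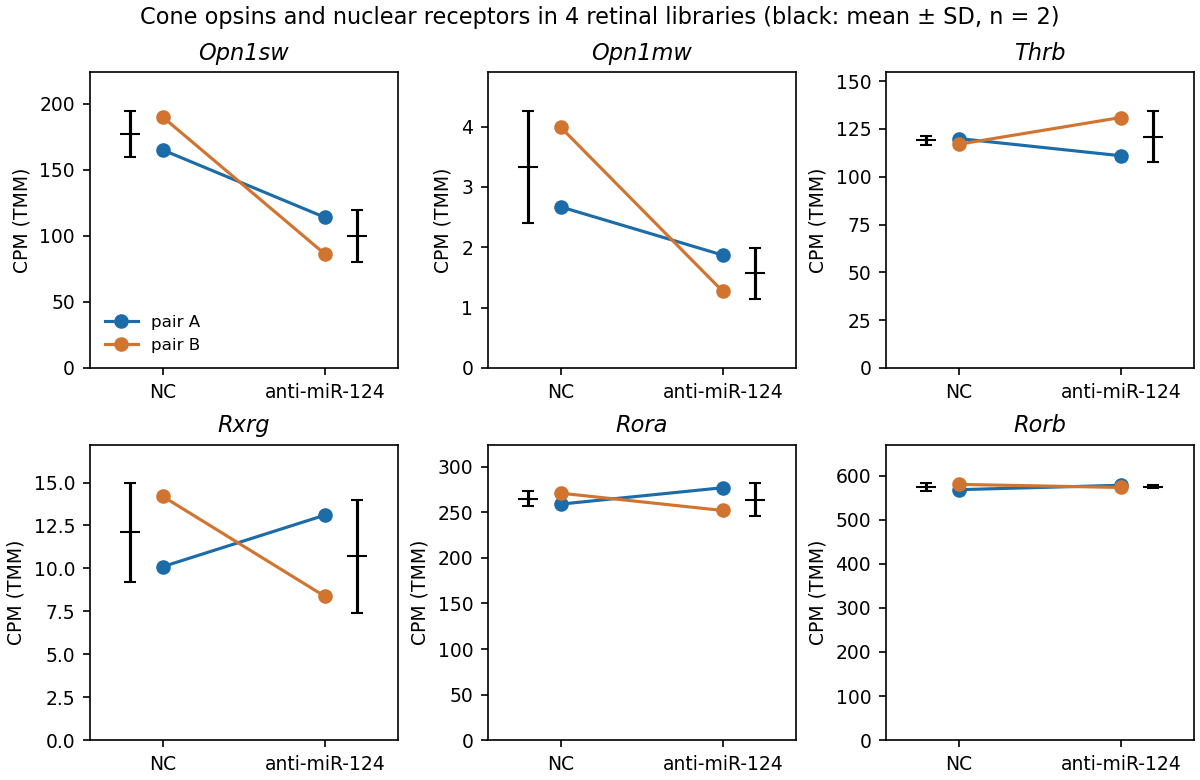
CPM after TMM scaling (vertical axes, from 0) of the 6 genes by group (NC and anti-miR-124), with lines joining the libraries of pair A and pair B and black bars for the mean ± SD (n = 2). Opn1sw and Opn1mw were lower at the treated end of both lines, the lines of Thrb, Rxrg, Rora and Rorb crossed, and Rorb stayed between 568 and 580.

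In counts, 2 of the 6 genes were lower after the antagomir with no overlap, 0 were higher and 4 overlapped. Over all genes tested, 16.8% were lower without overlap and 16.5% higher without overlap. The median log2 fold change of the 6 genes was -0.09, and that of all genes tested was 0.001. Across all genes, edgeR's quasi-likelihood test gave 0 calls at an adjusted p-value of 0.05 (0% of 17766), and at an unadjusted p-value below 0.05 it found 298 lower genes (1.68%) and 396 higher genes (2.23%). DESeq2 called 36 genes (0.203%).

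Compared per length, as TPM (the share of transcripts after division by gene length), Opn1sw was the highest of the 6 genes in the NC group at 207 and 262 TPM, just above Rorb at 182 and 204 TPM. Rora followed at 43.5 ± 4.12 TPM (SD, n = 2), then Thrb at 24.7 ± 1.13 TPM, Rxrg at 16.5 ± 4.91 TPM and Opn1mw at 8.75 ± 2.98 TPM. In the anti-miR-124 group Rorb led with 200 and 201 TPM, and Opn1sw came next at 155 and 119 TPM. The other 4 genes kept their order, down to Opn1mw at 4.24 ± 1.1 TPM. With the deposited lengths, no neighbours in either order overlapped in range, although 2 libraries a group set that range. The table gives lengths of 15271 bases for Thrb and 19408 for Rora, above those of the longest coding transcripts in GENCODE M21, at 6200 and 10878 bases. With the latter lengths these genes stood at 58.8 to 69.8 TPM and 72.3 to 83.4 TPM over the 4 libraries, in the same place in the order. The same change for Rorb, from 9453 to 9293 bases, put it at 185 and 208 TPM in NC-A and NC-B. Opn1sw kept 207 and 262 TPM there, so the NC ranges of Opn1sw and Rorb then overlapped.

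Since both opsins were lower, the balance between them was read within each library, where library scaling has no effect. Opn1sw stood above Opn1mw by 31.3-fold in NC-A and 24.1-fold in NC-B, and by 30.9-fold in anti-A and 34.3-fold in anti-B. The log2 ratio was 4.78 ± 0.27 for NC and 5.03 ± 0.11 for anti-miR-124 (SD, n = 2), and the groups overlapped. Within pairs the ratio differed by -0.02 (A) and 0.51 (B) on the log2 scale, and with 24 to 72 counts of Opn1mw a library the ratio carries its counting error. A shift between the opsins was therefore not detectable with these libraries.

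The other genes of the cone transduction machinery were read beside the opsins. Of 9 cone markers, 8 were lower after the antagomir with no overlap and 0 were higher, beside 16.8% lower and 16.5% higher over all genes tested. The list had a median log2 fold change of -0.35 (-0.22 for pair A, -0.54 for pair B). It was chosen with earlier results of these data known, so its counts are a description. edgeR's test called 0 of the 9 and DESeq2 called 1, Gnat2, beside 0% and 0.203% of all genes tested. In edgeR's test 5 were lower at an unadjusted p-value under 0.05, beside 1.68% of all genes. Gnat2, the alpha subunit of cone transducin, had 56.7 and 53.8 CPM in NC-A and NC-B and 38.9 and 24.8 CPM in anti-A and anti-B. Its log2 fold change was -0.80 (SE 0.19). Arr3, the cone arrestin, had 22.7 and 19.9 CPM against 17.9 and 10.1 CPM, a log2 fold change of -0.61 (SE 0.25). With 1 library left out, Arr3 stood at -0.25 without anti-B and at -1.08 without anti-A, and Gnat2 at -0.50 and -1.16. The guanylate cyclase activator Guca1a stood at -0.85 (SE 0.22) and the cone phosphodiesterase Pde6c at -0.62 (SE 0.22). Drops were smaller for Cnga3 (-0.35, SE 0.19), Pde6h (-0.33, SE 0.14), Gngt2 (-0.29, SE 0.13) and Cngb3 (-0.15, SE 0.08). Gnb3, the transducin beta subunit that bipolar cells also use, was the exception with 0.05 (SE 0.07). Without anti-B the median of the 9 was -0.14, and without anti-A -0.61. In bulk retina, fewer cones and less RNA per cone cannot be told apart.

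Within a library, the log2 ratio of Opn1sw to Gnat2 was 1.21 and 1.49 under NC and 1.23 and 1.47 under the antagomir, a difference of -0.00033 between the means. Each pair kept its own ratio to within 0.02. Of the 9 cone markers, Gnat2 had the profile nearest to that of Opn1sw over these same libraries, so the level ratio repeats that likeness. Against the mean of the 9 cone markers, the log2 level of Opn1sw was 1.72 ± 0.20 for NC and 1.34 ± 0.04 for anti-miR-124, with no overlap. The log2 level of Opn1mw on that scale was -3.06 ± 0.47 and -3.68 ± 0.07 (SD, n = 2), again with no overlap. Both opsins thus stood lower relative to the list as a whole, while Opn1sw stood level with Gnat2.

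**Figure D2:**
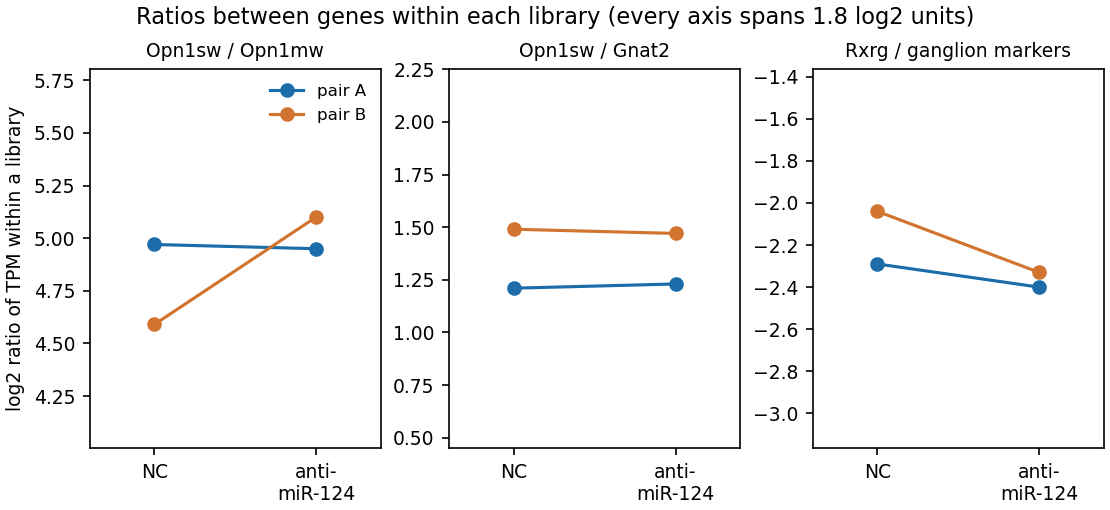
Log2 ratios of TPM within each library for the NC and anti-miR-124 groups, with lines joining pair A and pair B, on axes that each span the same width and do not start at 0. The ratio of Opn1sw to Gnat2 stayed level in both pairs, and that to Opn1mw differed by -0.02 in pair A and 0.51 in pair B.

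Rods, the other photoreceptor class, served as the comparison. Of 11 rod markers, 2 were lower (18.2%) and 5 higher (45.5%) without overlap, beside 16.8% lower and 16.5% higher over all genes tested. The median log2 fold change of the rod markers was 0.06. In edgeR's test 2 of the 11 were lower and 1 higher at an unadjusted p-value under 0.05, beside 1.68% and 2.23% of all genes. The 2 lower rod markers were Gnat1 and Gngt1, the alpha and gamma subunits of rod transducin, with log2 fold changes of -0.38 (SE 0.08) and -0.26 (SE 0.08).

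**Figure D3:**
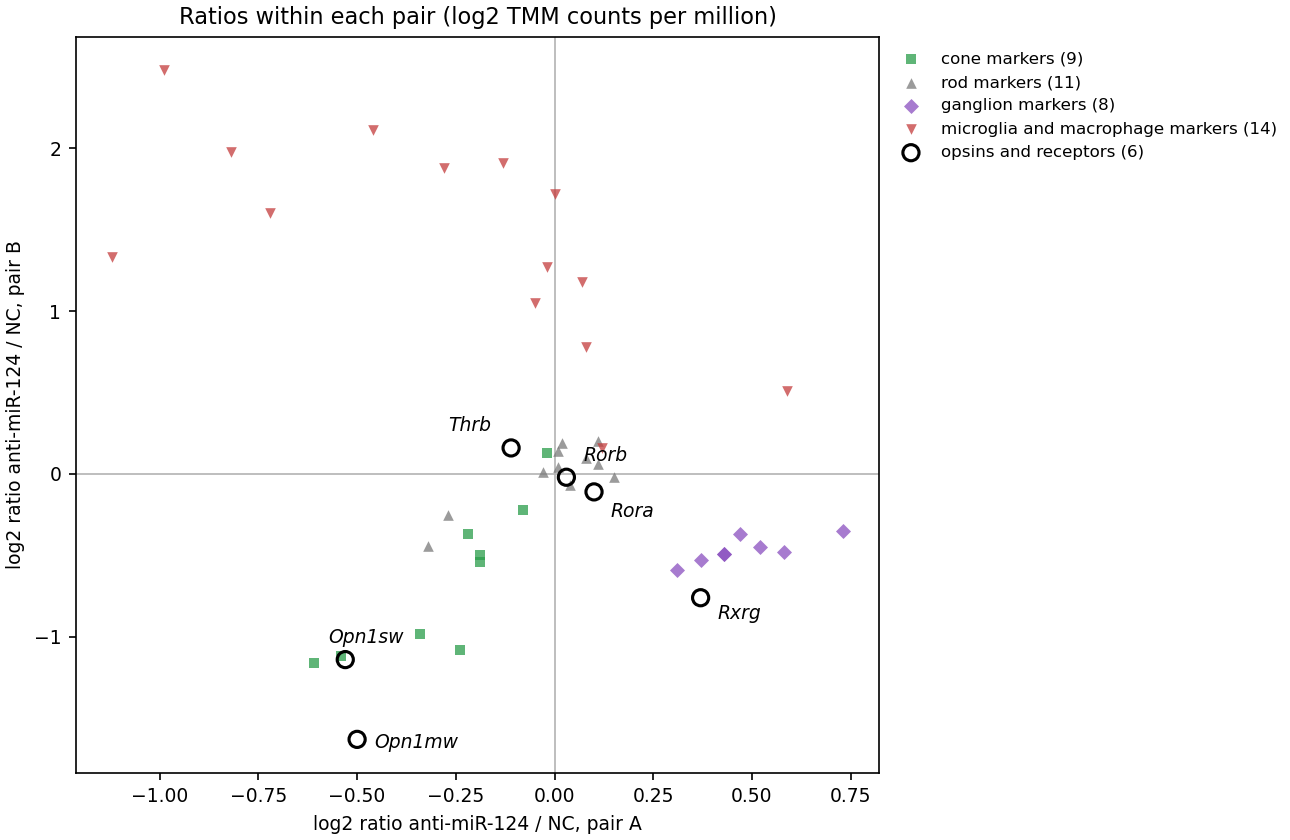
Log2 ratio of anti-miR-124 to NC in pair A (horizontal axis) and pair B (vertical axis) for the 6 genes (open circles) and for cone, rod, ganglion cell and microglial markers. Opn1sw and Opn1mw lie with the cone markers at lower left, Rxrg with the ganglion cell markers at lower right, and Thrb, Rora and Rorb near the origin with most rod markers. Bipolar cell markers, which also had opposite signs in the pairs, are not drawn.

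Markers of other cells set the libraries apart. Library NC-A held 6.54% of its TPM in 21 lens genes, against at most 0.0183% in the other libraries. The 14 microglia and macrophage markers summed to 273 CPM in anti-B and to between 108 and 140 CPM in the others. Left out in turn, these libraries left Opn1sw at -0.92 without NC-A and at -0.63 without anti-B, and Opn1mw at -1.34 and -0.83. Rxrg, by contrast, turned from -0.19 to 0.11 without anti-B. The summed rod level lay between 10275 and 10955 CPM, and all 9 cone markers were detected in every library.

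The genes around the opsin regulators were taken from 5 lists of 62 genes, of which 59 passed the filter. edgeR's test called 0 of them and DESeq2 called 0, while 1 lower and 4 higher genes had an unadjusted p-value under 0.05. Without overlap between groups, 2 were lower and 20 higher, beside 16.8% lower and 16.5% higher over all genes tested, and the median log2 fold change was 0.10, beside 0.001 over all genes. None of these genes passed the threshold.

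Thyroid hormone reaches the receptors through transporters and deiodinases. Slco1c1, a thyroxine transporter, had 2.98 and 1.77 CPM in NC-A and NC-B and 1.23 and 1.22 CPM in anti-A and anti-B, a log2 fold change of -0.95 (SE 0.37) that stood at -0.53 without NC-A and -1.28 without NC-B. Thra, the thyroid hormone receptor alpha, had a log2 fold change of 0.04 (SE 0.07). Dio3, which inactivates thyroid hormone, had only 2 to 14 counts a library and was not tested, and Dio1 did not pass the filter either. The log2 ratio of Dio2, the activating deiodinase, was -0.16 within pair A and 0.66 within pair B.

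The list of other nuclear receptors and co-regulators held the most values on one side. Of its 18 genes, 10 were higher without overlap (55.6%) and 0 lower, beside 16.5% higher and 16.8% lower over all genes tested. The median log2 fold change of the list was 0.11. Among them the retinoic acid receptor Rarg had 2.98 and 3.16 CPM under NC and 3.16 and 4.46 CPM under the antagomir. NC-B and anti-A were thus equal to the digits given, and its separation was marginal. The log2 fold change of Rarg was 0.31 (SE 0.28), and it stood at 0.05 without anti-B and 0.54 without anti-A. Rxra, a heterodimer partner of thyroid hormone and retinoic acid receptors, had 0.13 (SE 0.08).

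Among 14 photoreceptor transcription factors, 3 were higher without overlap (21.4%) and 0 lower, beside 16.5% higher and 16.8% lower over all genes tested. Onecut2, a horizontal cell and early cone factor, had 0.23 in each pair (SE of the fit 0.08), and its relative Onecut1 0.20 (SE 0.18). Nrl, which directs photoreceptor precursors to the rod fate, had 0.16 (SE 0.04). Nr2e3, its partner in repressing cone genes, had 0.10 (SE 0.06) and was counted in the list of other nuclear receptors, not here. Crx, an activator of opsins in rods and cones, had 1609 and 1600 CPM under NC and 1566 and 1632 CPM under the antagomir, overlapping between the groups.

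The dorsoventral patterning genes were included because opsin gradients follow that axis. Of 16 genes, 5 were higher without overlap (31.2%) and 0 lower, beside 16.5% higher and 16.8% lower over all genes tested. Opposite signs in the pairs were found for 11. Vax1, a ventral homeobox factor, had 0.63 (SE 0.33), the dorsal T-box factor Tbx3 0.14 (SE 0.08) and the ephrin receptor Ephb3 0.13 (SE 0.09). Aldh1a1, the dorsal retinaldehyde dehydrogenase, stood at 82.8 CPM in NC-A and at 32.8 to 55.5 CPM in the other libraries. The log2 ratio of Cyp26a1, a retinoic acid-degrading enzyme, was -0.89 within pair A and 0.88 within pair B, and that of Bmp4, a dorsal signal, -0.74 and 1.58. These 3 genes were not picked by the naming rule but for their opposite signs, after their values had been seen.

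Of the other opsins, 5 of 6 passed the filter. Rgr, the opsin of Müller glia and pigment epithelium, had 0.37 (SE 0.16), Opn3, or encephalopsin, -0.22 (SE 0.37) and Rrh, or peropsin, -0.14 (SE 0.14). Opn5 was too low to test. None of these 3 had as large a log2 fold change as Opn1sw or Opn1mw in either direction.

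**Figure D4:**
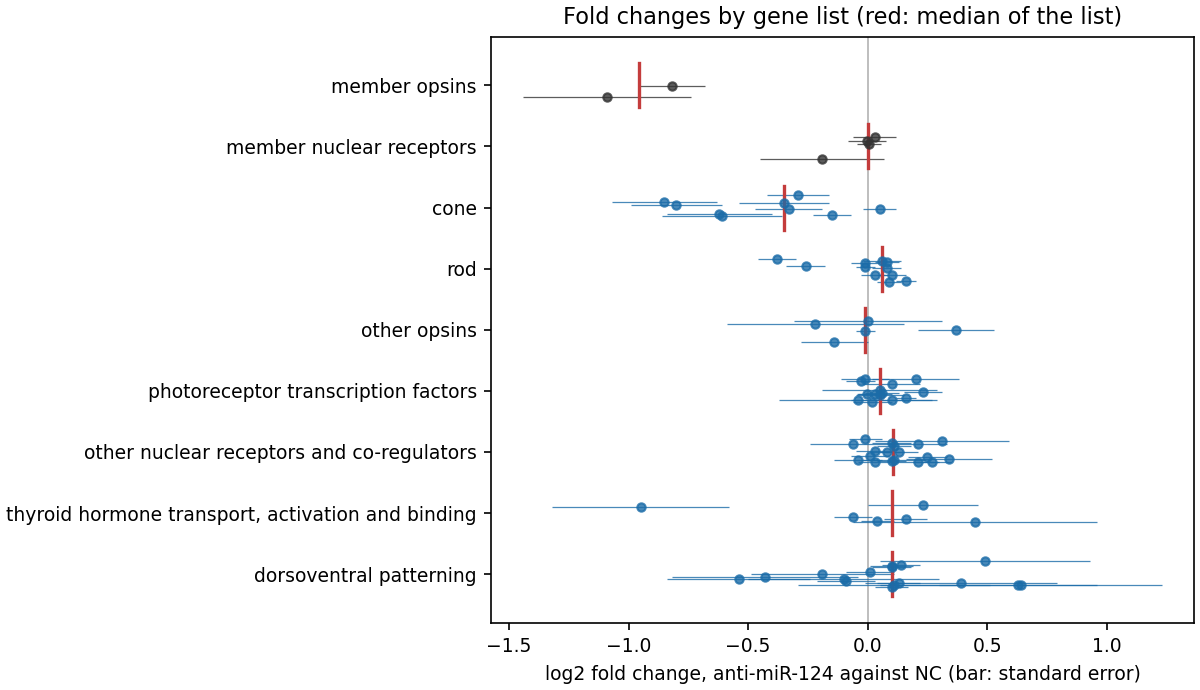
Log2 fold change of anti-miR-124 against NC (horizontal axis) with standard errors for each tested gene of the 2 opsins, the 4 receptors, the cone and rod markers and the 5 regulator lists, with the median of each list in red. The opsins and 8 of 9 cone markers lie to the left of 0, with a cone median of -0.35, and the regulator lists have medians between -0.01 and 0.11.

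Genes with the profile most like each opsin over the 4 libraries were found by Euclidean distance of centred log2 CPM among 15735 genes. The nearest to Opn1sw were Gm17146 (distance 0.103), 2900022M07Rik (0.137) and Gm11613 (0.202), which had 6 to 31 counts a library. The nearest to Opn1mw were 4930538K18Rik (0.268), 2900022M07Rik (0.294) and Mir8094 (0.309). With 4 points such likeness is common, and 389 genes had a Pearson r above 0.95 with Opn1sw and 341 with Opn1mw. Among the cone markers, Gnat2 ranked 18 in nearness to Opn1sw, Pde6c 29 and Guca1a 49, while Gnb3 ranked 10471.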

How the data were processed

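RNA was extracted from pooled mouse retinas and made into directional RNA-Seq libraries, per the labels. The authors deposited read counts per gene, not normalized, with gene lengths and positions. The 4 columns of RPKM values per sample beside the counts were not used. The submitters' processing notes name HISAT2 and mm9 without a role, and the counting tool and its strand setting are not given in the sources used here. Positions matched GRCm38: of 36837 symbols matched to RefSeq GRCm38.p6, 99.8% overlapped. Totals ran from 16317239 to 18726963 counts per library. Columns were assigned to groups by the eye they name.

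Counts were fitted with edgeR 4.0.16 (R 4.3.3), with TMM, filterByExpr, no covariate, a two-sided quasi-likelihood test and Benjamini-Hochberg adjustment at 0.05 over 17766 genes. The steps were tested on simulated data. DESeq2 1.42.0 was an alternative, with limma 3.58.1 loaded by edgeR. TPM came from counts and lengths, and CPM ratios used a prior count of 0.5. The other steps used Python 3.11.15, numpy 2.4.6, pandas 2.3.3, scipy 1.17.1 and matplotlib 3.10.9. The numbers were not taken as pairing in the test, because the labels do not say that a number marks a shared animal, litter or day. Deviations of same-numbered libraries correlated at -0.16, which with 2 libraries a group cannot show whether they were paired. Replicates differed by more than counting error (chi-square of at least 9.2 per degree of freedom).

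The 6 genes and the lists were chosen with earlier results of these data known. The named genes were the 6, a fixed set of regulators and markers (Crx, Nrl, Nr2e3, Thra, Rxra, Dio3, Arr3 and Gnat2), the 3 genes of each regulator list with the largest fold change of 1 sign in both pairs, and for each opsin the 3 nearest genes with at least 1 TPM in every library. The values of 4 genes that this rule also named are not reported here. Guca1a, Pde6c, Cnga3, Pde6h, Gngt2, Cngb3, Gnb3, Gnat1, Gngt1 and Dio2 were named after their values were seen. Other marker lists (Müller glia, pigment epithelium, bipolar, amacrine, horizontal and endothelial cells) were counted too. Alternatives were other scalings, filters, tests, a replicate block, TPM ratios and leaving out each library.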

Additional observations from a re-analysis of the deposited data

How the results depend on the processing

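The fold changes of the 6 genes and the opsin ratio were compared with the fit reported in 72 combinations of value and setting. In 1 of these the value moved by more than the SD of libraries within the groups. This was Rorb, at 0.06 as a mean log2 TPM ratio, where the median of all genes was 0.10 in pair A. It stood at 0.01 with lens genes left out of the TPM sum. Leaving out 1 of the 2 libraries of a group can hardly exceed that SD by construction. Those settings are therefore given as ranges, and Thrb, Rxrg, Rora and Rorb each changed sign among them. Leaving out 1 library at a time, the log2 fold change ranged from -1.04 to -0.63 for Opn1sw, from -1.39 to -0.76 for Opn1mw, from -0.08 to 0.14 for Thrb, from -0.54 to 0.11 for Rxrg, from -0.08 to 0.07 for Rora and from -0.01 to 0.02 for Rorb, and the opsin ratio from 0.06 to 0.44. The number of genes past the threshold, 0 in the fit reported, was 379 with no filter on low counts, 36 with DESeq2 and between 0 and 256 with 1 library left out (0 without NC-A, 256 without anti-A, 57 without NC-B and 12 without anti-B), and the cause was not tested. Of the regulator lists, 2 genes passed with no filter. The other named genes gave 198 combinations of gene and setting. Among the settings that kept every library, Arr3 and Gnat2 passed the threshold with no filter, and Gnat2 with DESeq2. These cone genes also depended on single libraries, with larger drops without anti-A (Arr3 -1.08, Gnat2 -1.16). In 7 combinations the sign changed. Crx stood at 0.0026 with no filter and 0.002 with lens genes left out of the scaling. The other sign changes came from leaving out 1 library. There Opn3 ranged from -0.55 to 0.09, Crx from -0.03 to 0.02 (0.00055 without NC-A) and Thra from -0.0041 to 0.08.

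With the number shared by the pair as a replicate block, 0 genes passed the threshold, Opn1sw stood at -0.83 and Opn1mw at -1.08, and the block changed no call. A crossed pairing, chosen after seeing the data, gave 160 calls over all genes and 1 among the regulator lists.

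The depth limits Opn1mw most, at 24 to 72 counts a library. With 2 libraries per group, an SD rests on 1 difference.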

Other observations

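Other cell types in the same libraries were counted with the same fit, as values only. The median log2 fold change was 0.08 for 10 Müller glia markers, 0.37 for 9 tested pigment epithelium markers, -0.05 for 8 bipolar cell markers, 0.01 for 9 amacrine cell markers, 0.11 for 5 horizontal cell markers and -0.06 for 6 endothelial markers. All 8 bipolar cell markers had opposite signs in the 2 pairs, with medians of 0.21 (A) and -0.33 (B), and none of their values separated the groups. Horizontal cell markers, which share Onecut1 with the factor list, were higher without overlap in 2 of 5 genes (40%), beside 16.5% of all genes tested.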
